A study of Homo sapiens with 23 samples.

Results

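The 10 genes FASN, ACACA, ACLY, SCD, ELOVL6, FADS1, FADS2, SREBF1, ME1 and MLXIPL were followed here as the core of de novo lipogenesis and fatty acid desaturation. They were taken by gene symbol from the TPM tables (transcript abundance scaled for transcript length and for the total of each library), which listed 60564 genes, and all 10 were found. De novo lipogenesis turns citrate exported from mitochondria into fatty acids. ACLY splits citrate into cytosolic acetyl-CoA, ACACA carboxylates it to malonyl-CoA, and FASN builds palmitate from both with NADPH, part of which is supplied by the malic enzyme ME1. ELOVL6 lengthens palmitate, SCD inserts the double bond that makes oleate, and FADS1 and FADS2 desaturate polyunsaturated fatty acids. The pathway is driven by the transcription factors SREBP-1, encoded by SREBF1, and ChREBP, encoded by MLXIPL, which respond to insulin and sterol signals and to sugar, respectively.

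RNA was measured in Caco-2, a colorectal adenocarcinoma line used as a model of intestinal epithelium, and in HepG2, a liver cancer line used as a model of hepatocytes. The lines were cultured separately (mono-culture) or in the linked chambers of the iGLC platform, a microfluidic chip that circulates medium between the gut and liver lines (co-culture). Both cultures were kept for 1 day with or without free fatty acids (FFAs), palmitic and oleic acid mixed 1 to 2 at a total of 1 mM, in treatment medium that the labels give as containing 0.5% serum. Each of the 8 groups had 3 libraries, except co-cultured Caco-2 controls with 2, which gave 11 Caco-2 and 12 HepG2 libraries. Nothing in the labels states that the libraries of a group came from separate cultures, so the p-values measure only the spread between these libraries. Reads per library were not given with the TPM values, so depth is unknown. The number of genes with a TPM over 0 ranged from 19259 to 23689.

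The line labels were checked against 10 hepatocyte and 10 intestinal marker genes. In HepG2 the intestinal cadherin CDH17 was at 0.05 to 2.75 TPM and the intestinal factor CDX2 at 0.02 to 0.73 TPM, against a mean of 407 and 86.6 TPM in Caco-2. Of the intestinal markers 8 of the 9 tested were lower, and of the hepatocyte markers 9 of 10 were higher in HepG2. The exceptions were MEP1A, at 0.64 to 70.0 TPM in HepG2 and 15.6 to 33.0 TPM in Caco-2, and HPX, lower in HepG2 at a mean of 15.2 against 19.9 TPM. Villin (VIL1) was at 153 to 244 TPM in HepG2, and CDX1 was at most at 0.18 TPM in both lines and not tested. Caco-2 expressed several hepatocyte markers itself, albumin (ALB) among them at 321 to 769 TPM. Transferrin (TF) and AMBP, at 5680 TPM or more and 3383 TPM or more in every HepG2 library, stood apart in 2 co-cultured Caco-2 libraries. These were FFAs replicate 1, with 133 TPM of TF and 62.0 TPM of AMBP, and control replicate 1, with 42.8 and 23.5 TPM, whereas the other 9 Caco-2 libraries had at most 10.2 and 13.3 TPM. The HepG2 libraries numbered 3 also stood apart, with the lowest ACLY and SCD of their group in all 4 groups.

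All 10 members were at 1 TPM or more on average in at least 1 group, and 9 of them in HepG2, where ME1 was nearly absent. TPM is scaled for transcript length, so levels can be set side by side. SCD was the most abundant member in each of the 23 libraries, between 437 and 1109 TPM. The summed level of the 10 genes ranged from 1007 to 1630 TPM in Caco-2 (median 1203) and from 1339 to 2094 TPM in HepG2 (median 1693). SCD alone held 42.7% to 55.1% of that sum in a library. ACLY and FADS1 came next in both lines, at medians of 189 and 223 TPM in Caco-2 and of 291 and 204 TPM in HepG2. ACACA, which is controlled largely at the protein level by phosphorylation, was low in both, at medians of 22.1 and 24.9 TPM.

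**Figure D1:**
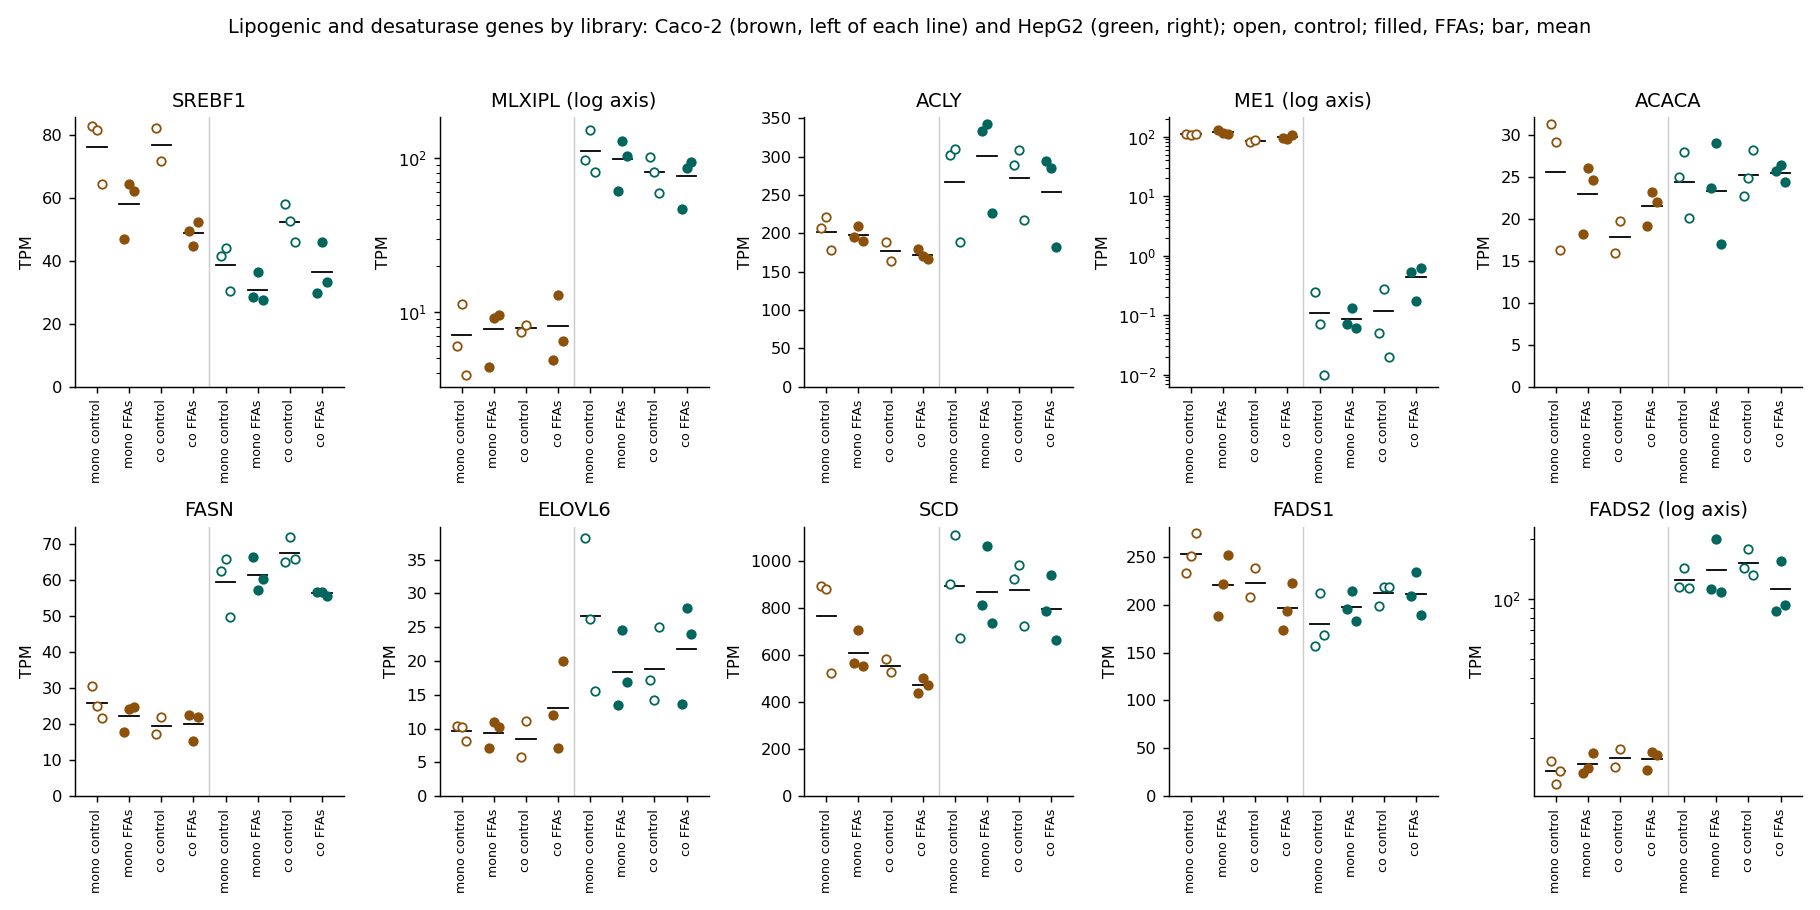
TPM of each gene (vertical axis, linear from 0 except for MLXIPL, ME1 and FADS2, whose axes are log) in every library, by line, culture and treatment (horizontal axis). Points are libraries and bars are group means. ME1 sat between 81.9 and 131 TPM in Caco-2 and below 1 TPM in all HepG2 libraries, and MLXIPL and FADS2 were separated between the lines in the other direction.

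Promoter windows were available for 9 of the 10 genes, all but FASN, in a RefSeq table on GRCh38.p14. The 250 bases before each start were searched on both strands for the letters CACGTG (E-box), CCAAT (NF-Y), TCACNCCAC (a sterol regulatory element) and GGGCGG (Sp1). Among all 35116 windows of the table, 6.34% held the E-box letters, 32% the CCAAT letters, 0.883% the sterol element letters and 42.6% the Sp1 letters. CCAAT was found in 5 of the 13 windows of the members (38.5%), those of SCD, ACLY and ACACA, with the ACLY windows sharing their matches, and the Sp1 letters in 11 of the 13 (84.6%). The windows of SCD and ACLY, the most abundant member and the enzyme at the start of the pathway, each held 2 CCAAT matches and Sp1 matches. The windows of SREBF1, ME1 and MLXIPL, shown because the results on treatment, culture and line turn on these genes, held Sp1 matches and no CCAAT match. E-box and sterol element letters were not found in any of the 13 windows of the members, which says only that these letters are not in these 250 bases. FASN was not searched. The sequences are shown 5′ to 3′ in the direction of transcription, ending at the base before the start, with matches on either strand in capitals.
SCD (chr10:100346983-100347232, plus strand): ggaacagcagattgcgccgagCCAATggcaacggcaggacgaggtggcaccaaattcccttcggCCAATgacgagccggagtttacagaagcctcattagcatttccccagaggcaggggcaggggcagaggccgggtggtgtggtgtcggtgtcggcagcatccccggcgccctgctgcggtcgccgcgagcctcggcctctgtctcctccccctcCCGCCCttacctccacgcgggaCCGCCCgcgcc
ACLY (chr17:41918952-41919201, minus strand): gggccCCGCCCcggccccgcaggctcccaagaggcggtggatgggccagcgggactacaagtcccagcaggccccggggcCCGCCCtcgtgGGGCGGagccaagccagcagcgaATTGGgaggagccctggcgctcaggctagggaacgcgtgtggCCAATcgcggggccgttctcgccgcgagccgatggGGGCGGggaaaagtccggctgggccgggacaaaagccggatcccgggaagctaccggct
SREBF1 (chr17:17836987-17837236, minus strand): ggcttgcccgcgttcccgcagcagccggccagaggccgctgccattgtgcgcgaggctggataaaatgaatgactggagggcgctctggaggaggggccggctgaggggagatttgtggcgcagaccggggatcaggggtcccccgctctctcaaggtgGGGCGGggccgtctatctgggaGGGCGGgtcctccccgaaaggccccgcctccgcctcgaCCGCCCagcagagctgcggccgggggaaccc
ME1 (chr6:83431052-83431301, minus strand): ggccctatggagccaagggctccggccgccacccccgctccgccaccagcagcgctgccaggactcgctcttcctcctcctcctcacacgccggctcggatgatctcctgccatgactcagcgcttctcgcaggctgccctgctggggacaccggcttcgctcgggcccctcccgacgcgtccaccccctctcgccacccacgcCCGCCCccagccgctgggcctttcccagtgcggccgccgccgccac
MLXIPL (chr7:73624523-73624772, minus strand): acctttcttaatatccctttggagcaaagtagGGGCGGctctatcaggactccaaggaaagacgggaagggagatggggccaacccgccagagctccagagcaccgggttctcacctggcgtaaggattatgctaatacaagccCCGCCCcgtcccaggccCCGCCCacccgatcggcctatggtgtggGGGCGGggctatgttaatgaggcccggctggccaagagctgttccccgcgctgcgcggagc

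FASN, FADS2 and MLXIPL were higher and ME1 lower in HepG2 than in Caco-2, without overlap between the libraries of the lines. Of all genes tested 42.7% likewise did not overlap. Over the 4 conditions, 9 of the 10 members differed between HepG2 and Caco-2 at an adjusted p under 0.05 (limma, Benjamini-Hochberg), against 79% of the 16495 genes tested, so that the count of members is near the share of all genes. Of the members 6 were higher and 3 lower in HepG2, with a median log2 difference of 0.53. The median of all genes tested was -0.24, and -0.05 after median-of-ratios scaling, and the differences below are to be read against that shift. Of all called genes 36.9% were higher in HepG2, a share that became 47.5% after median-of-ratios scaling. In mono-cultured controls alone 7 of the 10 members differed, against 62.4% of genes. FASN, ELOVL6, FADS2 and MLXIPL were higher and SREBF1, FADS1 and ME1 lower, all 7 without overlap between the lines, as for 67.5% of genes.

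**Figure D2:**
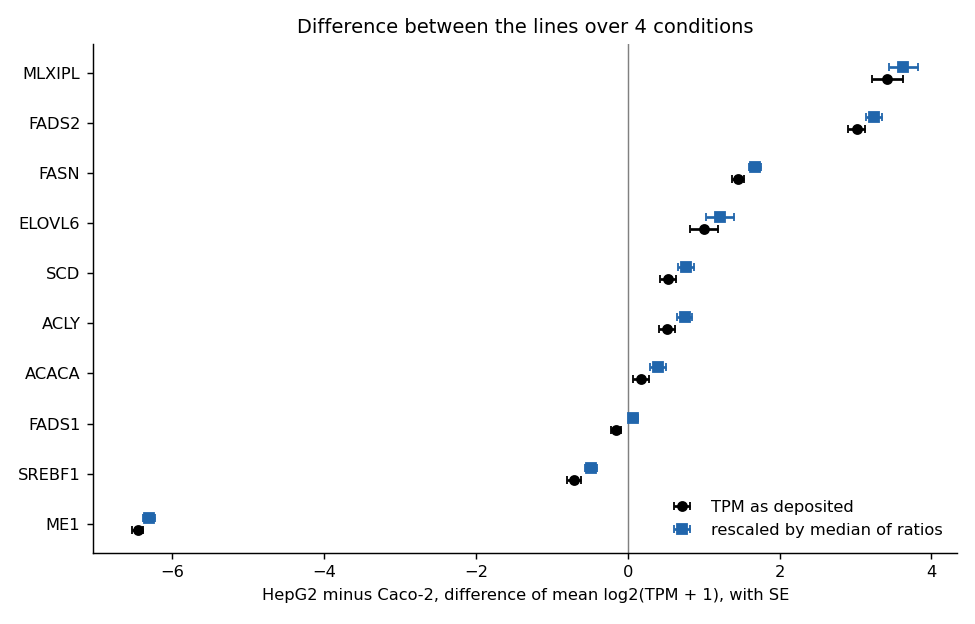
Difference between HepG2 and Caco-2 over the 4 conditions (horizontal axis, log2 of TPM + 1, positive where HepG2 was higher) for each gene, with its standard error. Circles are TPM as deposited and squares the same values rescaled by the median of ratios, which moves the genes to the right by about the shift of all genes and turns the sign of FADS1.

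Of the transcription factors, SREBF1 (chr17:17810399-17837002) was the lower and MLXIPL (chr7:73593194-73624543) the higher in HepG2. SREBF1 had a lowest, median and highest level of 44.6, 64.5 and 82.9 TPM in Caco-2 and of 27.5, 39.1 and 58.2 TPM in HepG2. The 2 ranges overlapped, and the log2 difference was -0.71 ± 0.09 (SE, adjusted p = 5.14e-07, limma). Its 2 main isoforms are not separated in gene-level values. MLXIPL was at 3.91, 7.35 and 13.0 TPM in Caco-2 and at 46.9, 91.0 and 154 TPM in HepG2, without overlap, a log2 difference of 3.42 ± 0.20 (SE, adjusted p = 5.43e-12, limma) or 10.7-fold on the scale of TPM + 1.

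ME1 (chr6:83210402-83431051) showed the widest separation of the 10 genes. In Caco-2 it was at 81.9, 106 and 131 TPM (lowest, median, highest) and in HepG2 at 0.01, 0.10 and 0.61 TPM. The log2 difference was -6.45 ± 0.07 (SE, adjusted p = 2.92e-23, limma), which the pseudocount of 1 TPM makes smaller than the ratio of the TPM values. The other malic enzymes, added after the values were seen, did not share one direction. ME2, the mitochondrial enzyme that makes NADH, was at 7.93 to 13.0 TPM in Caco-2 and at 17.8 to 23.6 TPM in HepG2 (log2 difference 0.99 ± 0.07, adjusted p = 9.67e-11, limma). ME3, the mitochondrial enzyme that makes NADPH, was at 20.2 to 30.2 TPM in Caco-2 and at 0 to 0.32 TPM in HepG2, where 6 of 12 libraries were listed at 0. ACLY (chr17:41866917-41930542) was higher in HepG2, at 182, 291 and 342 TPM against 164, 189 and 222 TPM, with a log2 difference of 0.52 ± 0.10 (SE, adjusted p = 0.000139, limma). In mono-cultured controls alone ACLY did not pass the threshold (0.37 ± 0.20, adjusted p = 0.119, limma).

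FASN (chr17:82078338-82098294) was at 15.4, 22.01 and 30.5 TPM in Caco-2 and at 49.7, 61.5 and 71.9 TPM in HepG2. The libraries of the lines did not overlap, as for 42.7% of all genes, and the log2 difference was 1.46 ± 0.08 (SE, adjusted p = 2.02e-12, limma), or 2.75-fold. ACACA (chr17:37084992-37406836), the preceding step, differed by 0.17 ± 0.11 with a 95% interval of -0.06 to 0.41 (adjusted p = 0.153, limma), and by 0.40 ± 0.10 after median-of-ratios scaling (adjusted p = 0.0017, limma). ELOVL6 (chr4:110045846-110199199) was at 5.87, 10.3 and 20.0 TPM in Caco-2 and at 13.5, 20.6 and 38.2 TPM in HepG2, overlapping, with a log2 difference of 1.00 ± 0.19 (SE, adjusted p = 6.08e-05, limma).

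Among the desaturases, SCD (chr10:100347233-100364826) was moderately higher in HepG2, at 663, 856 and 1109 TPM against 437, 553 and 892 TPM in Caco-2 (log2 difference 0.53 ± 0.11, adjusted p = 0.00014, limma). In mono-cultured controls its difference was 0.24 ± 0.21 (adjusted p = 0.331, limma). FADS2 (chr11:61792980-61867354) was 8.09-fold higher on the scale of TPM + 1, at 11.8, 14.3 and 17.6 TPM in Caco-2 and at 86.8, 124 and 199 TPM in HepG2, without overlap (log2 difference 3.02 ± 0.11, adjusted p = 3.05e-15, limma). FADS1 (chr11:61799627-61829318) was of similar level in the lines over the 4 conditions, at 174, 223 and 275 TPM and at 157, 204 and 234 TPM. Its log2 difference of -0.16 ± 0.07 (SE, adjusted p = 0.0364, limma) became 0.07 ± 0.06 after median-of-ratios scaling (adjusted p = 0.236, limma) and -0.12 without the HepG2 libraries numbered 3 (adjusted p = 0.151, limma). The call was also lost without any 1 of 10 of the 23 libraries, in both lines, so over the 4 conditions neither its direction nor its call is firm. In mono-cultured controls alone FADS1 was lower in HepG2. Over 32 alternatives that difference ranged from -0.63 to -0.31 (adjusted p from 0.000434 to 0.0348, limma). All 29692 bases of the FADS1 gene lie within the span of FADS2 on the opposite strand in GENCODE 44, and the library kit does not mark the strand. Reads from the shared stretch cannot be told apart by strand, so the levels of the pair are less certain than those of the other members. FADS1 was above FADS2 in every library.

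The genes around the pathway, in lists chosen by function, differed between the lines in both directions. Their counts are to be read against all genes tested, of which 29.2% were higher and 49.8% lower in HepG2. Of 19 tested genes of SREBP processing and regulation, 4 were higher and 10 lower in HepG2 (median log2 difference -0.17). INSIG1, which holds the SREBP precursor in the endoplasmic reticulum, was at 164 to 341 TPM in Caco-2 and at 0.14 to 1.11 TPM in HepG2 (-7.30 ± 0.13, adjusted p = 4.01e-20, limma). The near absence of INSIG1 in HepG2 could not be checked against reads here, and the part of mapping and annotation in it was not tested. Its paralog INSIG2 was at 43.5 to 55.1 TPM in Caco-2 and at 144 to 286 TPM in HepG2 (2.08 ± 0.09, adjusted p = 4.26e-14, limma). The LXR-alpha gene NR1H3 (-1.31 ± 0.08) and the deacetylase SIRT1 (-1.46 ± 0.10) were lower in HepG2. Of 12 tested targets of SREBP-1, ChREBP and LXR, 5 were higher and 2 lower. Among them the fructokinase KHK (2.72 ± 0.07) and the liver pyruvate kinase PKLR (3.71 ± 0.16) were higher, and MYLIP (-2.003 ± 0.12), which degrades the LDL receptor, and LPCAT3 (-1.58 ± 0.10), which remodels phospholipids, were lower.

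Of 9 genes that supply acetyl-CoA and NADPH, 4 were higher and 3 lower in HepG2, led by pyruvate carboxylase PC (1.83 ± 0.07). Malate dehydrogenase MDH1 was lower (-0.43 ± 0.04), and IDH1 (0.23 ± 0.05) and the acetyl-CoA synthetase ACSS2 (0.67 ± 0.13) were higher. All 17 tested genes of other elongation, desaturation and synthesis differed, against 79% of all genes, 4 higher and 13 lower, with a median of -0.54. The elongase of long polyunsaturated fatty acids ELOVL2 was at 61.6 to 74.1 TPM in HepG2 and at 0.02 to 1.52 TPM in Caco-2 (5.77 ± 0.12, adjusted p = 2.03e-19, limma). The elongase ELOVL7 (-2.04 ± 0.08), the second stearoyl-CoA desaturase SCD5 (-2.47 ± 0.12) and the enoyl reductase TECR (-0.61 ± 0.04) were lower. Of 16 cholesterol synthesis and uptake genes, 10 were higher and 4 lower with a median of 0.41. FDFT1 (1.90 ± 0.15), which makes squalene, was higher, and SC5D (-1.01 ± 0.07), a late sterol desaturase, was lower. Of the 8 genes of the fatty acid response list, 4 were higher and 3 lower in HepG2. The fatty acid binding protein FABP1 (2.21 ± 0.14), the lipid droplet protein PLIN2 (1.29 ± 0.10) and ACADVL of mitochondrial beta-oxidation (0.95 ± 0.08) were higher.

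FFAs addressed whether fatty acid supply alters the transcription of the genes that make fatty acids. SREBF1 was lower with FFAs on average in both lines and both cultures, and no member passed the adjusted threshold. In mono-cultured Caco-2, SREBF1 was at 82.9, 81.7 and 64.5 TPM without FFAs and at 47.1, 64.6 and 62.3 TPM with FFAs, with the highest FFAs library at the level of the lowest control. In co-cultured Caco-2 it was at 82.1 and 71.7 TPM without FFAs and at 49.4, 44.6 and 52.3 TPM with FFAs. There it did not overlap between treatments, as for 17.2% of genes with 2 libraries on one side. In mono-cultured HepG2 it was at 41.6, 44.1 and 30.5 TPM without FFAs and at 28.7, 36.5 and 27.5 TPM with FFAs. In co-cultured HepG2 it was at 58.2, 52.9 and 46.0 TPM without FFAs and at 29.9, 46.0 and 33.3 TPM with FFAs, where again a library with FFAs reached the lowest control.

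The 4 log2 differences of SREBF1 were, in mono-culture, -0.39 ± 0.14 for Caco-2 and -0.31 ± 0.19 for HepG2 (SE). In co-culture they were -0.65 ± 0.16 and -0.53 ± 0.19. Averaged over cultures they were -0.52 ± 0.10 in Caco-2 (unadjusted p = 0.000383, adjusted p = 0.705, limma) and -0.42 ± 0.13 in HepG2 (unadjusted p = 0.00892, adjusted p = 1, limma). SREBF1 was 8th of 15081 genes by unadjusted p in Caco-2 and 70th of 14255 in HepG2. Averaged over both lines and cultures, a comparison added after the data were seen, the difference was -0.47 ± 0.09 with a 95% interval of -0.66 to -0.28, and SREBF1 was 4th of 16495 genes (unadjusted p = 4.76e-05, adjusted p = 0.196, limma). It passed after median-of-ratios scaling (-0.49, adjusted p = 0.0373, limma). It also passed without the replicate 2 library of co-cultured HepG2 with FFAs, the highest of its group (-0.51, adjusted p = 0.0366, limma). In the rest of the 31 alternatives it did not pass, with adjusted p up to 0.542 (limma). The difference of the FFAs effect between the lines was 0.10 ± 0.18 (adjusted p = 1, limma), and that between co- and mono-culture was -0.25 ± 0.21 in Caco-2 and -0.22 ± 0.27 in HepG2 (adjusted p = 1 for both, limma).

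**Figure D3:**
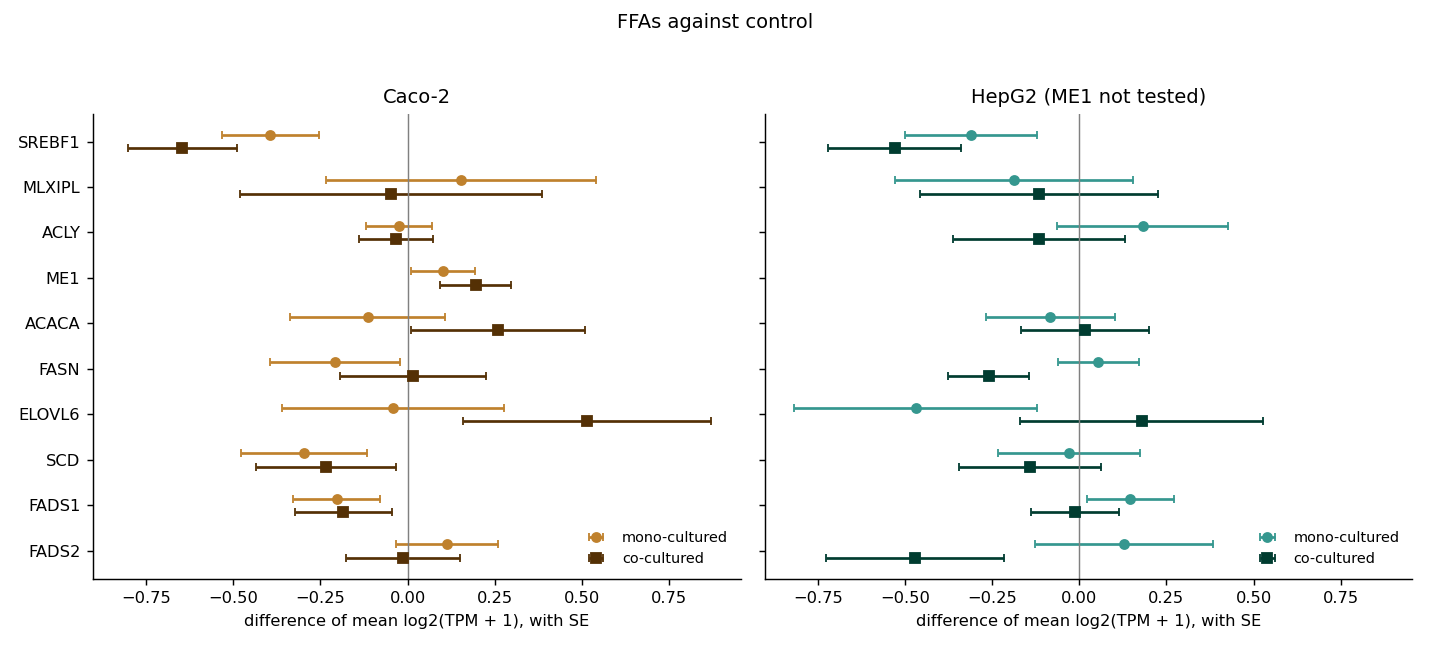
Difference between FFAs and control (horizontal axis, log2 of TPM + 1, negative where FFAs were lower) for each gene in mono-culture (circles) and co-culture (squares), with its standard error, in Caco-2 (left) and HepG2 (right). SREBF1 lay between -0.65 and -0.31 in all 4 comparisons. In Caco-2, SCD, FADS1 and ACLY also lay below 0 and ME1 above 0 in both cultures, and none of these passed the test.

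Over both cultures 0 of 10 members in Caco-2 and 0 of 9 in HepG2 passed the adjusted threshold with FFAs, and 0% of all genes did in either line. At an unadjusted p under 0.05, SREBF1 alone of the members passed in each line, against 3.99% of genes in Caco-2 and 3.49% in HepG2. Within each culture the adjusted threshold was passed by 0% of genes in mono-cultured Caco-2, 0.0199% in co-cultured Caco-2 and 0% in mono- and co-cultured HepG2, with 0 members among them. At an unadjusted p under 0.05, SREBF1 passed in mono- and co-cultured Caco-2, against 2.61% and 2.83% of genes. In HepG2, 0 members passed in mono-culture and SREBF1 and FASN in co-culture, against 2.24% and 1.84% of genes. In mono-culture all members overlapped between treatments, where 7.13% of genes in Caco-2 and 6.47% in HepG2 did not, and over both cultures 0.424% of genes in Caco-2 and 0.0982% in HepG2 did not overlap and 0 members were among them. The median log2 difference of the members was 0.01 in Caco-2 and -0.10 in HepG2, against 0.01 for all genes in each. MLXIPL differed by 0.15 ± 0.39 in mono-cultured Caco-2 (95% interval -0.70 to 1.00), the highest value of that comparison. For ELOVL6 the FFAs difference was 0.51 ± 0.36 in co-cultured Caco-2 and 0.18 ± 0.35 in co-cultured HepG2, the highest of each, and -0.47 ± 0.35 in mono-cultured HepG2, the lowest. The change of the ELOVL6 difference from mono- to co-culture was 0.56 ± 0.48 in Caco-2 and 0.65 ± 0.49 in HepG2, with intervals that include 0. At an unadjusted p under 0.05 that change passed in 0 members in either line, against 1.94% of genes in Caco-2 and 1.16% in HepG2. FADS2 had the lowest change in HepG2 (-0.60 ± 0.36, adjusted p = 1, limma), with 143, 178 and 132 TPM without FFAs and 86.8, 155 and 93.5 TPM with FFAs in co-culture. Between the lines the FFAs effect differed most for ELOVL6 (-0.38) and FADS1 (0.26), where 0 members and 0.0182% of genes passed.

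SCD and the other synthesis genes gave smaller values. Co-cultured Caco-2 had 582 and 526 TPM of SCD without FFAs and 437, 503 and 473 TPM with FFAs, which did not overlap, as for 17.2% of genes with 2 libraries on one side. The difference was -0.23 ± 0.20, with a 95% interval of -0.68 to 0.21. In the same libraries ME1 was at 81.9 and 87.9 TPM without FFAs and at 95.3, 91.5 and 106 TPM with FFAs, a log2 difference of 0.20 ± 0.10 (adjusted p = 1, limma). FASN in co-cultured HepG2 was at 65.0, 71.9 and 66.0 TPM without FFAs and at 56.6, 56.6 and 55.6 TPM with FFAs, without overlap, as for 5.42% of genes. Its log2 difference of -0.26 ± 0.12 had an unadjusted p of 0.0465 and an adjusted p of 1 (limma). In mono-cultured HepG2 FASN was at 62.6, 65.8 and 49.7 TPM without FFAs and at 66.5, 57.2 and 60.4 TPM with FFAs, with full overlap. ACLY had the highest value of mono-cultured HepG2, 0.18 ± 0.25.

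By the per-line criteria of an unadjusted analysis of variance over the 4 groups (p under 0.05 and group means at least 1.2-fold apart), ME1 and SREBF1 met them in Caco-2 and SREBF1 in HepG2. Those criteria were met by 3.08% of all genes above 0 TPM in Caco-2 and 3.56% in HepG2. A filter of 1 TPM on average in any group raised these shares. It left 704 of 15081 genes in Caco-2 and 868 of 14255 in HepG2 meeting the criteria, with the same members. Without the replicate 3 library of mono-cultured Caco-2 controls, which had the lowest ACACA, SCD and ACLY of its group, 5 members met them. In HepG2 0 members met them without the 4 libraries numbered 3, a fit with only those numbered 1 and 2 in each group. Leaving out the 2 co-cultured Caco-2 libraries numbered 1 left a single co-cultured control, so no count is given for that fit.

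The pathway lists showed 0 called genes with FFAs over both cultures in either line (limma). The fatty acid response list had a median log2 difference of 0.35 in Caco-2, against 0.01 for all genes, led by the pyruvate dehydrogenase kinase PDK4 (1.02 ± 0.25, adjusted p = 0.99, limma). In HepG2 its median was 0.15. PDK4 was near the pseudocount in Caco-2, at 0.51 to 5.14 TPM with a median of 0.90 TPM. So was PKLR, named below, at 0.59 to 2.52 TPM with a median of 0.92 TPM. The 16 cholesterol genes had medians of -0.06 in Caco-2 and 0.17 in HepG2, where HMGCS1 was highest (0.43 ± 0.16, adjusted p = 1, limma). The 12 targets of SREBP-1, ChREBP and LXR had medians of -0.06 and -0.04, with KHK highest (0.34 ± 0.11) and PKLR lowest (-0.45 ± 0.23) in Caco-2, and PNPLA3 highest (0.26 ± 0.19) and MYLIP lowest (-0.53 ± 0.20) in HepG2. The SREBP regulators had medians of 0.04 and -0.02, the acetyl-CoA and NADPH genes of 0.00 in both lines, and the other elongation and desaturation genes of 0.01 and 0.06.

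Co-culture asked whether the presence of the other line alters the pathway. In Caco-2, ME1 was lower in co-culture with and without FFAs, and no member passed the adjusted threshold in either line. Mono-cultured Caco-2 had 112, 106.2 and 113 TPM of ME1 without FFAs and 131, 115 and 110 TPM with FFAs. All 5 co-cultured libraries, at 81.9, 87.9, 95.3, 91.5 and 105.7 TPM, were below these 6, as for 1.38% of genes. The log2 difference over both treatments was -0.33 ± 0.07 (unadjusted p = 0.000527, adjusted p = 0.249, limma). Without the 2 co-cultured libraries numbered 1, which left a single co-cultured control, the difference was -0.29. With all libraries it was -0.37 ± 0.10 without FFAs and -0.28 ± 0.09 with FFAs.

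SCD and ACLY were also on the low side in co-cultured Caco-2. With FFAs, SCD was at 437, 503 and 473 TPM in co-culture and at 565, 705 and 553 TPM in mono-culture, and ACLY was at 180, 170 and 167 TPM against 195, 209 and 190 TPM. Neither overlapped, as for 9.32% of genes, with log2 differences of -0.36 ± 0.18 and -0.20 ± 0.10 (adjusted p = 0.854 and 0.833, limma). Over both treatments SCD differed by -0.39 ± 0.14 and ACLY by -0.20 ± 0.07 (adjusted p = 0.377 and 0.398, limma). Without FFAs, SCD overlapped between the cultures through the replicate 3 library of mono-culture, at 522 TPM against 892 and 881 TPM in its group. ACACA was lowest (-0.45 ± 0.25) and MLXIPL highest (0.23 ± 0.43) of the members there, and FADS2 was highest over both treatments (0.15 ± 0.11, adjusted p = 0.652, limma). The summed hepatocyte markers were at 3422 to 4492 TPM in co-cultured Caco-2 and at 2256 to 3860 TPM in mono-cultured Caco-2, ranges that overlap. Their median log2 difference was 0.53, and the part of HepG2 RNA in these results was not tested.

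**Figure D4:**
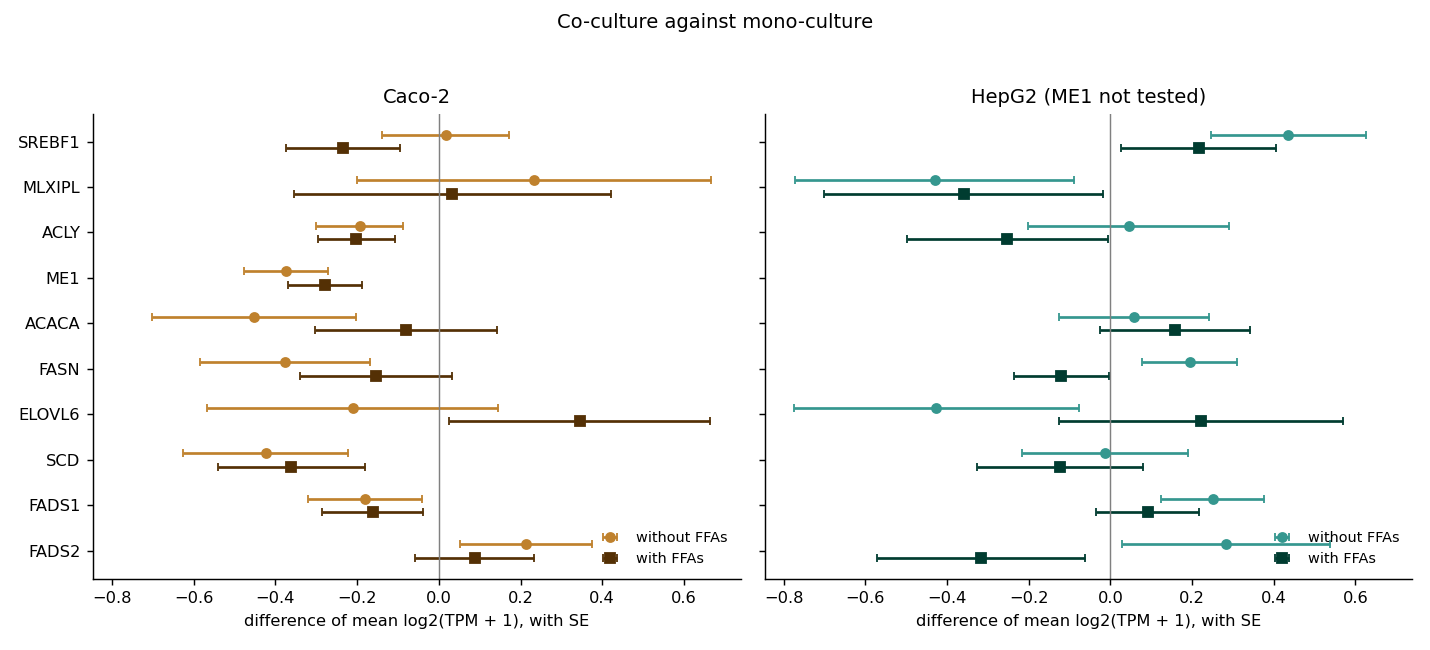
Difference between co-culture and mono-culture (horizontal axis, log2 of TPM + 1, negative where co-culture was lower) for each gene without FFAs (circles) and with FFAs (squares), with its standard error, in Caco-2 (left) and HepG2 (right). ME1, SCD, ACLY, ACACA, FASN and FADS1 lay below 0 in both Caco-2 comparisons, and SREBF1, ACACA and FADS1 lay above 0 in both HepG2 comparisons.

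In HepG2 the gene on the high side of co-culture was SREBF1. Without FFAs it was at 58.2, 52.9 and 46.0 TPM in co-culture and at 41.6, 44.1 and 30.5 TPM in mono-culture, without overlap, as for 14.9% of genes (log2 difference 0.44 ± 0.19, adjusted p = 0.647, limma). Over both treatments the difference was 0.33 ± 0.13 (unadjusted p = 0.0322, adjusted p = 0.344, limma). With FFAs, FASN was at 56.6, 56.6 and 55.6 TPM in co-culture and at 66.5, 57.2 and 60.4 TPM in mono-culture, without overlap, as for 9.6% of genes, a log2 difference of -0.12 ± 0.12 (adjusted p = 0.962, limma). MLXIPL was the lowest member of all 3 HepG2 comparisons of the cultures, at -0.39 ± 0.24 over both treatments (adjusted p = 0.531, limma).

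ME1 in HepG2 was at 0.05, 0.28 and 0.02 TPM in co-cultured controls and at 0.53, 0.17 and 0.61 TPM with FFAs, and at 0.01 to 0.24 TPM in mono-culture. It was not tested at these levels. The pair of HepG2 libraries above 0.5 TPM also had the most CDH17 of the line, 2.75 and 1.79 TPM. The summed intestinal markers were 166 to 279 TPM in co-cultured HepG2 and 229 to 322 TPM in mono-cultured HepG2, mostly villin (VIL1), which HepG2 expresses itself. The part of Caco-2 RNA in these ME1 values was not tested.

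Across all genes, 0% passed the adjusted threshold for co-culture over both treatments in Caco-2 and 0.0561% in HepG2, where 0 members passed. At an unadjusted p under 0.05, ME1, SCD and ACLY passed in Caco-2, against 10.5% of genes, and SREBF1 in HepG2, against 12.5%. Within a treatment 0.0199% of genes passed in Caco-2 without FFAs and 0% in the other 3 comparisons of the cultures, and 0 members passed. At an unadjusted p under 0.05, ME1 passed in Caco-2 without and with FFAs, against 5.43% and 6.09% of genes. In HepG2, SREBF1 passed without FFAs and 0 members with FFAs, against 7.53% and 5.63% of genes. The difference of the co-culture effect between the lines was passed by 0.533% of genes and by 0 members. SREBF1 was highest (0.44 ± 0.18, unadjusted p = 0.0255, limma) and MLXIPL lowest (-0.53 ± 0.41, adjusted p = 0.586, limma) of the 9 members expressed in both lines. An unadjusted p under 0.05 was reached by 14.6% of all genes in that comparison. For ME1 the difference is not read, since its levels in HepG2 were below the pseudocount. Averaged over lines and treatments, also added after the data were seen, SCD was lowest (-0.23 ± 0.11) and SREBF1 highest (0.11 ± 0.09), with 0 members and 0.0546% of genes passing.

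Of the lists, 0 genes were called with co-culture over both treatments in either line (limma). The cholesterol genes had medians of -0.21 in Caco-2, where FDPS was lowest (-0.54 ± 0.15, adjusted p = 0.308, limma), and -0.23 in HepG2, where HMGCS1 was lowest (-0.58 ± 0.16, adjusted p = 0.177, limma), against 0.03 and -0.02 for all genes. The acetyl-CoA and NADPH genes had medians of -0.10 and 0.04, with TALDO1 highest in HepG2 (0.26 ± 0.08). The fatty acid response list had a median of 0.15 in Caco-2 and -0.58 in HepG2, where PLIN2 was highest (0.40 ± 0.14). The targets of SREBP-1, ChREBP and LXR had medians of -0.02 and -0.10, the SREBP regulators of 0.01 and 0.00, and the other elongation and desaturation genes of -0.07 and -0.06.

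Within each line the members varied together to different degrees. Pearson's r of log2(TPM + 1) between ACLY and SCD was 0.86 over the 11 Caco-2 libraries and 0.84 over the 12 HepG2 libraries, a description over libraries that share culture and treatment. In HepG2, the 4 libraries numbered 3 had 182 to 226 TPM of ACLY against 285 to 342 TPM in the other 8, and 663 to 734 TPM of SCD against 784 to 1109 TPM. No other member separated these libraries. Between SREBF1 and SCD r was 0.70 in Caco-2 and 0.56 in HepG2, and between SREBF1 and FADS1 it was 0.61 and 0.40. Over the 45 pairs of members the median r was 0.24 in Caco-2 and 0.33 in HepG2.

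**Figure D5:**
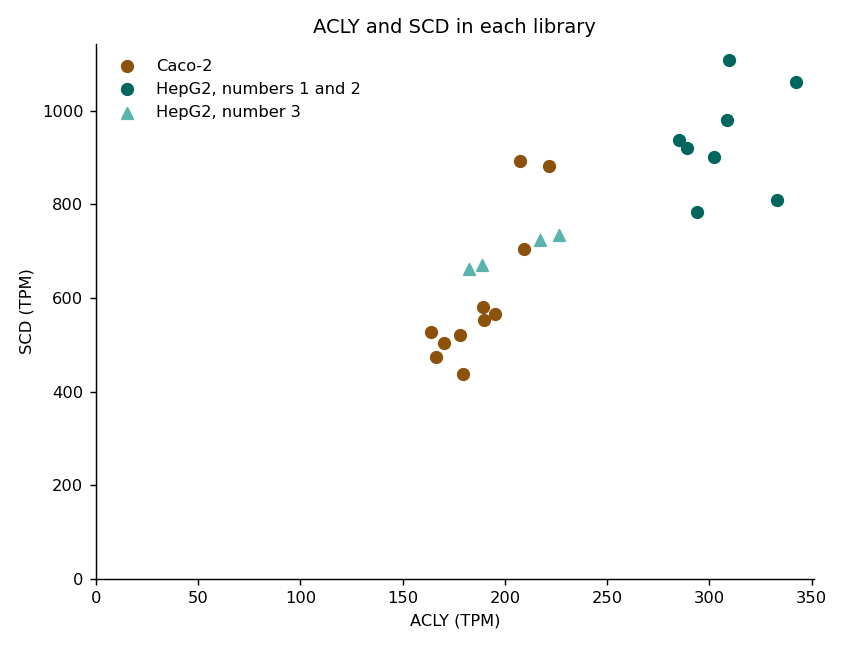
TPM of SCD (vertical axis) against TPM of ACLY (horizontal axis), both from 0, with a point for each library of Caco-2 and HepG2. The HepG2 libraries numbered 3 (triangles) lie below and to the left of the other HepG2 libraries.

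Among the genes outside the members most like their mean profile, each gene centred on its mean in each line, were ZBTB5 (r = 0.83), ACSS2 (0.82), PLXNA2 (0.81) and CYP51A1 (0.80). The profile averaged the 9 members tested in both lines, and 12832 genes were compared over the 23 libraries, which include those numbered 3.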

How the data were processed

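mRNA-seq libraries of 23 Caco-2 and HepG2 samples were prepared with a full-length cDNA kit and a tagmentation kit, which does not mark strand. According to the methods and the submitters' processing notes, reads matching rRNA, tRNA or mitochondrial sequences were removed with Bowtie2 2.1.0. STAR 2.7.1a then aligned the remainder to GRCh38, and RSEM 1.3.0 gave the TPM that the authors deposited per sample. Mitochondrial genes (37) are therefore at 0, and no interval from counting error could be given, since TPM keep no depth.

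log2(TPM + 1) was fitted with limma 3.58.1 (R 4.3.3, trend), in a fit of the 4 groups of each line and a fit of all 8, for genes whose mean reached 1 TPM in any group of the fit. This left 15081 genes for Caco-2, 14255 for HepG2 and 16495 for both, with Benjamini-Hochberg adjustment over all of them and a threshold of 0.05. An analysis of variance per gene was also run on genes above 0 TPM. The fits were tested on simulated data. The members and lists were chosen with earlier results of these data known. All members are described. Of the other lists at most 4 genes are named per comparison, those with the smallest adjusted p if it is under 0.05 and otherwise the highest and lowest, and some of these are not reported here. Gene positions are from GENCODE 44 on GRCh38, a later annotation than the authors used, and promoters from RefSeq. Alternatives were another pseudocount, 2 scalings, no filter, no trend, a replicate block, only the groups compared, and leaving out libraries. The fit without the 4 HepG2 libraries numbered 3 or the 2 co-cultured Caco-2 libraries numbered 1 was added after the data were seen.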

Additional observations from a re-analysis of the deposited data

How the results depend on the processing

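The 9 members called between the lines over all conditions were 8 or 9 when 1 library was left out, with FADS1 the gene lost. Its call was lost in 10 of 23 such fits, without the low-TPM filter (adjusted p = 0.0632), without the trend (0.0528) and after quantile normalization (0.772, limma). FADS1 reversed after median-of-ratios scaling, to 0.0744 (adjusted p = 0.236, limma). In mono-cultured controls 7 to 8 members were called. The members meeting the analysis of variance criteria were 2 in Caco-2 and 1 in HepG2. They were 0 in both under limma's adjusted F, and 0 in HepG2 without the libraries numbered 3. Without the co-cultured Caco-2 libraries numbered 1 a single co-cultured control was left, so no count is given. Leaving out 1 library gave 2 to 5 in Caco-2 and 0 to 2 in HepG2. The HepG2 count was 0 without replicate 1 of co-cultured controls, replicate 3 of co-culture with FFAs, replicate 1 of mono-cultured controls, or replicate 1 or 3 of mono-culture with FFAs, and 2 without replicate 2 of co-culture with FFAs or of mono-cultured controls. Without replicate 2 of co-cultured controls it stayed at 1, but the gene was ME1, so SREBF1 was lost in 6 of 12 such fits. The FFAs comparison over both lines gave 0 members, 1 after median-of-ratios scaling and 0 to 1 when 1 library was left out. The cause of these changes was not tested. With 1 library left out, some small differences that were not called turned sign. MLXIPL ranged from -0.15 to 0.51 with FFAs in mono-cultured Caco-2 and from -0.0704 to 0.59 with co-culture in Caco-2 without FFAs. With FFAs, ACLY ranged from -0.0492 to 0.37 in mono-cultured and ELOVL6 from -0.0176 to 0.47 in co-cultured HepG2.

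The groups share replicate numbers. In HepG2 all 18 same-numbered pairs of libraries had a positive r of their deviations from the group mean. It ranged from 0.03 to 0.60 (median 0.30), against a median of -0.23 between different numbers. In Caco-2 not every such pair did (r from -0.09 to 0.31, median 0.09, against a median of -0.12). The deviations in a group sum to 0, so positive r within numbers makes r between numbers negative. The negative medians are therefore not a separate result. The numbers were not taken to pair the libraries in the main fits. In HepG2 the libraries numbered 3 deviated together, at r from 0.46 to 0.60, and those numbered 1 and 2 were less clearly told apart. Replicate 2 of co-cultured HepG2 controls had r = 0.335 with replicate 1 of co-culture with FFAs and 0.096 with its replicate 2. In contrast, replicates 1 of co- and mono-cultured HepG2 with FFAs had r = 0.52. SREBF1 was lower with FFAs in 11 of 11 same-numbered pairs, and FADS1 in 5 of 5 in Caco-2 and 1 of 6 in HepG2. The share of all genes with such counts was not computed, so the counts only describe these genes and are not a test. With the number as a replicate block, SREBF1 with FFAs over both lines was -0.46 (adjusted p = 0.106, limma). With that block 3 members met the analysis of variance criteria in Caco-2 (FADS1 with ME1 and SREBF1), against 4.83% of all genes above 0 TPM. In HepG2 1 member did, against 5.55% of all genes above 0 TPM. Over all genes the co-culture calls went from 0 to 60 in Caco-2 and from 8 to 492 in HepG2, and those of the difference between lines from 88 to 344.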
